A study of Rattus norvegicus with 9 samples.

Results

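Atf3 and Crem are basic leucine zipper (bZIP) transcription factors of the ATF/CREB family, read here in rat lung by every probe set of the array that is annotated to either gene. The 2 genes, of 4699 with a symbol on the array, had 5 of its 8799 probe sets, 1 for Atf3 and 4 for Crem, and 4 of the 5 passed the filter on low signal. The pair was chosen by its intensities on these same arrays, where both genes had been seen to be higher with pure oxygen and with mechanical ventilation. Their levels and changes over the 4 groups are therefore a description without a test. Tests are given only for other genes.

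Total RNA of rat lung was hybridised to 9 oligonucleotide arrays. The rats breathed spontaneously or were mechanically ventilated, each way with 21% or 100% oxygen. Spontaneous breathing at 21% oxygen is the group without either treatment, spontaneous breathing at 100% had oxygen alone, mechanical ventilation at 21% had ventilation alone, and mechanical ventilation at 100% had both. Strain, age, ventilator settings and duration are not given by the labels used here. Each group held 2 samples with the letters a and b, and letter b of mechanical 100% was read on 2 arrays that count as 1 sample. Whether a and b were different rats is not labelled. The p-values below therefore weigh changes against the scatter of such sample pairs, and this scatter may be technical.

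ATF/CREB factors bind as pairs, joined by their leucine zippers, to the cyclic AMP response element (CRE) and related sites. Atf3 is an early response gene that many stresses induce through stress-activated kinases and through the eIF2 alpha and ATF4 arm of the stress response. As a homodimer it represses transcription, and in immune cells and lung it is known as a brake on inflammatory cytokine genes. Crem encodes both activators and repressors of cyclic AMP response genes. An internal promoter of Crem gives ICER, a short repressor that cyclic AMP induces rapidly and that shuts off its own promoter.

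RefSeq's promoter table (build GRCr8) held 3 start sites for Crem, all on the plus strand, and none for Atf3. The 250 bases before each start are shown because they differ in the CRE letters that Crem's own products and other ATF/CREB proteins recognise. They lie at chr17:58933816-58934065, chr17:58984547-58984796 and chr17:58985240-58985489, in this order. Capitals mark the core TGACG and the sites TGACGTCA or TGANGTCA on either strand, where N is any base.

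Crem start 1: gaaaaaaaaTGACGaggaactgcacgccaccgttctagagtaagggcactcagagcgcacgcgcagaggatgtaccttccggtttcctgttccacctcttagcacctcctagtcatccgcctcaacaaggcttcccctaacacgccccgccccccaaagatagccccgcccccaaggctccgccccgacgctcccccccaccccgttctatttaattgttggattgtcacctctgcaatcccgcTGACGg

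Crem start 2: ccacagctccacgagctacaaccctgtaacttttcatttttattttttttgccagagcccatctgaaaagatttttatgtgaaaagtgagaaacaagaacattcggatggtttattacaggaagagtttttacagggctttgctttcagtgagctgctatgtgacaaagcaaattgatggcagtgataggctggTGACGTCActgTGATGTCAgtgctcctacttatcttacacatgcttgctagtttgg

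Crem start 3: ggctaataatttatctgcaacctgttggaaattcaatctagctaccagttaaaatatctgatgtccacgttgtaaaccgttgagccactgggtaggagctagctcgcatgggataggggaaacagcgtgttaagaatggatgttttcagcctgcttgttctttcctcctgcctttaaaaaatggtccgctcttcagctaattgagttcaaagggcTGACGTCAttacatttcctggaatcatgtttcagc

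Start 1, the farthest upstream, had a GC-rich window (58.8% G and C) with 2 cores and no full CRE. Start 2 (40.8% G and C) held TGACGTCA at 56 bases before the start and the variant TGATGTCA at 45 bases before it. Start 3 (43.2% G and C) held TGACGTCA at 35 bases before the start and once more at base 40 after it. Over all 33469 promoter windows of the table, each 250 bases before to 50 bases after a start, 1.83% held TGACGTCA and 21.2% held the core TGACG, which the full site contains. At least 2 TGANGTCA sites, as in the windows of starts 2 and 3, were found in 1.19%; this wider motif was searched after the sequences had been seen. The AP-1 site TGACTCA, held by 4.63% of all windows, and the amino acid response element TGATGCAA, held by 0.795%, were in none of the 3. Which start or isoform each Crem probe set reads was not analysed here.

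Atf3 (probe set M63282_at) was lowest without treatment and highest with both treatments. On the deposited linear intensity scale it read 487 and 566 in spontaneous 21% (letters a and b), 843 and 728 in mechanical 21%, 1175 and 1192 in spontaneous 100%, and 3725 and 2907 in mechanical 100%. Behind the last value are 2 arrays that read 2827 and 2987. Among neighbouring groups of this order the narrowest gap, between untreated and ventilated lungs at 21% oxygen, ran from 566 to 728. How many other probe sets set their groups apart in this way was not counted. The means ± SD (n = 2) were 526 ± 56.1, 785 ± 81.4, 1183 ± 12.0 and 3316 ± 578. Letter a of mechanical 100% stood clearly above letter b, the widest spread in any group for this gene.

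Crem showed the same order of groups in its brightest probe set, S66024_g_at, with a different spacing. It read 302 and 319 in spontaneous 21%, 1007 and 1038 in mechanical 21%, 1599.7 and 1498 in spontaneous 100%, and 2532 and 2350.7 in mechanical 100%, where the 2 arrays of letter b read 2283 and 2418. The means ± SD (n = 2) were 311 ± 11.5, 1022 ± 22.4, 1549 ± 71.6 and 2442 ± 128. Both groups with a single treatment thus stood well apart from untreated lung, and the samples of each group lay close together.

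Probe set S66024_at, named for the same source sequence and so no independent reading, gave 203 and 299, 961 and 997, 1268 and 1161, and 2220.4 and 1890.4 in that order of groups. Another probe set, U04835_at, read 395 and 339.6 in spontaneous 21%, 908 and 868 in mechanical 21%, 862 and 758 in spontaneous 100%, and 1647 and 1472 in mechanical 100%. In this one ventilation alone was level with or slightly above oxygen alone, with only 862 against 868 between the nearest samples. The last one, Z15158mRNA_at, lay between -36.9 and 47.5 on all arrays, at percentiles 12.2 to 28.7 of the probe sets of an array. It did not pass the filter, and its groups overlapped throughout, so no level of Crem was read from it.

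**Figure D1:**
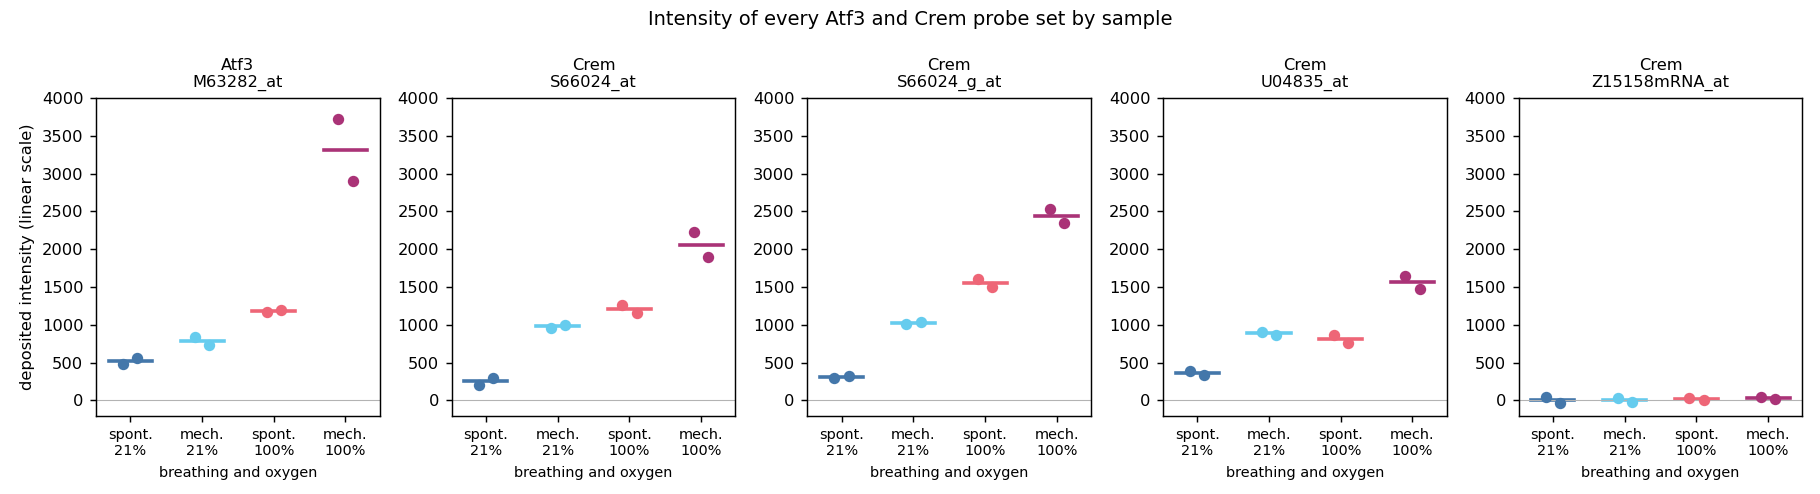
Deposited intensity (linear scale, y axis) of the 5 probe sets in the 4 groups (x axis), with 1 point per sample and a line at the group mean (n = 2 samples). Atf3 stands far above its other groups in mechanical 100%, where it reads 2907 and 3725, while 3 Crem probe sets already stand high in both single treatments and the last one stays near 0.

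Oxygen and ventilation went with unequal steps in the 2 genes. In spontaneously breathing rats, 100% against 21% oxygen changed Atf3 by 1.11 ± 0.16 (log2 change ± SE on the log2(intensity + 40) scale, a 2.17-fold step) and Crem S66024_g_at by 2.18 ± 0.12 (4.53-fold). Under mechanical ventilation the order was the other way round, 2.02 ± 0.16 for Atf3 (4.04-fold) and 1.22 ± 0.12 for Crem (2.33-fold). The larger oxygen step of Atf3 was therefore in ventilated lungs and that of Crem in spontaneously breathing ones.

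The ventilation steps are the same 4 group means read the other way, not a second observation. At 21% oxygen it went with 0.54 ± 0.16 for Atf3 (1.46-fold) and 1.60 ± 0.12 for Crem S66024_g_at (3.03-fold). At 100% oxygen the changes were 1.44 ± 0.16 for Atf3 (2.72-fold) and 0.64 ± 0.12 for Crem (1.56-fold). Lungs with both treatments stood 2.56 ± 0.16 above untreated ones for Atf3 and 2.82 ± 0.12 for Crem. For Crem U04835_at this distance was 1.97 ± 0.15 (3.93-fold), less than for Atf3 (5.90-fold) and for S66024_g_at (7.08-fold).

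The interaction, the oxygen change under ventilation minus that in spontaneous breathing, was 0.90 ± 0.23 for Atf3 and -0.96 ± 0.18 for Crem S66024_g_at. It was -1.09 ± 0.26 for S66024_at and -0.28 ± 0.21 for U04835_at, so the Crem probe sets shared its sign but not its size. For U04835_at the oxygen change was 1.06 ± 0.15 in spontaneous breathing and 0.78 ± 0.15 under ventilation, and the ventilation change 1.19 ± 0.15 at 21% and 0.91 ± 0.15 at 100% oxygen. Ventilation alone minus oxygen alone was -0.57 ± 0.16 for Atf3, -0.58 ± 0.12 for S66024_g_at, -0.30 ± 0.18 for S66024_at and 0.13 ± 0.15 for U04835_at.

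**Figure D2:**
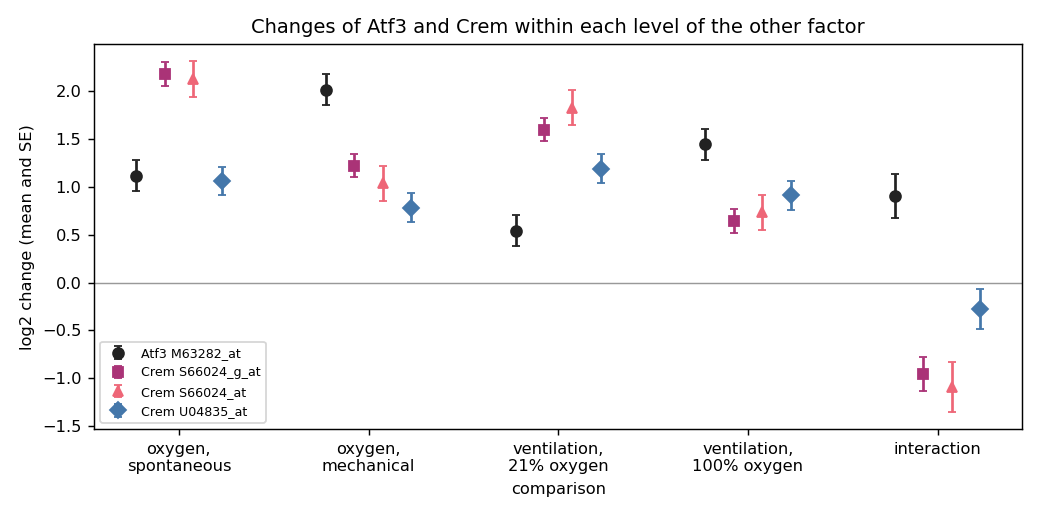
Log2 change (y axis, mean and SE from the fit over all samples) of Atf3 and 3 Crem probe sets for oxygen within each way of breathing, ventilation within each oxygen level, and the interaction (x axis). Atf3 has its larger oxygen and ventilation changes in the presence of the other treatment and an interaction of 0.90, whereas the Crem probe sets lie below 0 there, from -1.09 to -0.28.

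On the linear scale the difference between the genes had another form. For Atf3 the intensity gained with both treatments, 2789.6 over untreated lung, was 3.05 times the sum of the gains with oxygen alone (657) and ventilation alone (259), an excess of 1873 ± 415 (SE over samples). For Crem S66024_g_at the gain with both, 2131, was 1.09 times the sum of 1239 and 712, an excess of 181 ± 105. The other probe sets gave 1.07 times (S66024_at, an excess of 113 ± 181) and 1.24 times (U04835_at, an excess of 229 ± 107). In intensity, S66024_g_at and S66024_at with both treatments were thus near the sum of their single gains. U04835_at lay somewhat above that sum, and Atf3 far above it.

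A line for a lot batch, with no lot named, stands in the description of 4 arrays: both spontaneous 21% arrays, mechanical 100% letter a and 1 of the 2 arrays of mechanical 100% letter b. It thus splits the arrays almost as the interaction does, and only mechanical 100% has arrays with and without it. There the block sets 1 array of letter b against its other array and letter a together. The gap between the letters thus enters it. For Atf3 the array without the line read 2827, and those with it read 2987 (letter b) and 3725 (letter a). With this line as a block and the 9 arrays kept apart, the interaction was 0.45 ± 0.38 for Atf3 and -1.17 ± 0.29 for Crem S66024_g_at, with -1.42 ± 0.44 for S66024_at and -0.58 ± 0.35 for U04835_at. For the size of Atf3's interaction, the lot line, the gap between letters a and b of mechanical 100% and the groups cannot be told apart. The excess on the linear scale contrasts the groups in the same way and was not computed with the block. Ventilation alone minus oxygen alone compares only arrays without the line.

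The lungs carried other tissues in amounts that moved with the groups. Epithelial markers fitted the label, with a summed intensity of 44665 to 97722 for 8 surfactant, airway and alveolar genes. In spontaneous 100% the 12 skeletal muscle markers summed to 27830 to 28728, against 2812 to 8749 in the other groups, with Tnni2 and Myh2 at or below 0 in mechanical 100%. In spontaneous 100% the 11 heart markers summed to 24147 to 26235, against 11683 to 15498 in the others, and 3 squamous epithelium markers to 7204 to 7620, against 162 to 1883. In mechanical 21% the 9 T lymphocyte markers summed to 30964 to 32893, against 2037 to 3035 elsewhere, and the 6 brown fat markers to 18498 to 19341, against 6939.6 to 9731. The 5 neutrophil markers summed to 13575 to 13760.3 in mechanical 100% and to 17656 to 22278 in the others, and the 3 macrophage markers to 3838 to 3974 and 6316 to 13895. In mechanical 100%, where Atf3 and Crem were highest, 8 of the 9 marker lists had their lowest sums, those for lung epithelium, skeletal and heart muscle, squamous epithelium, T lymphocytes, brown fat, neutrophils and macrophages. Bright markers weigh most in a sum, and single markers differed: the epithelial Aqp5 had its highest mean there (1413). With both treatments against none, the 5 neutrophil markers had 1 higher, 1 lower and a median log2 change of 0.20. The part of these tissues in the levels of the 2 genes was not tested. For male germ cells, known for abundant Crem, the 6 markers summed to 975 to 981 in mechanical 100%, their highest, and to 776 to 889 in the other groups. Prm2 read 319 to 422 and Acr 339 to 475 over all samples, while Odf1 was listed at or below 0 in every group, Ldhc in both spontaneous groups and Tnp2 in mechanical 21%. Fewer cells of a type and less RNA per cell cannot be told apart in such samples. The 99th percentile of the arrays lay at 7072 to 8357 in mechanical 100% and at 9931 to 14581 in the others, above every reading of the 2 genes. Whether this narrower range in mechanical 100% lowered the sums of bright markers was not tested.

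The genes with the most similar course over the 8 samples were found by the root mean square difference between log2 profiles, each taken relative to its own mean in spontaneous 21%, among 3180 other tested genes. Nearest to Atf3 was Egr1, a zinc finger early response factor, at a difference of 0.27. It read 997 and 1138 in spontaneous 21%, 1579.5 and 1761 in mechanical 21%, 1691 and 1640.5 in spontaneous 100%, and 6424 and 5833 in mechanical 100%. Next came the zinc finger factor Klf6 (0.45), the chemokine gene Ccl3 (0.49), the haem oxygenase gene Hmox1 (0.49) and Fhl2, a LIM domain protein (0.52).

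Nearest to Crem S66024_g_at were Ttr, the thyroid hormone carrier (0.39), the monocyte attractant Ccl2 (0.53), the serine protease inhibitor Serpina3l (0.69), Atf3 itself (0.77) and albumin, Alb (0.78). Ccl2 read 334 and 396 in spontaneous 21% and between 1275 and 1809.7 in the other 6 samples. With both treatments it read 1513 and 1275, no higher than with oxygen alone, whereas both Crem samples lay above those with oxygen alone. Ttr, Serpina3l and Alb were dim in spontaneous 21%, between 25.8 and 188, and so were Ccl3 (44.8 and 65.9, with 14.2 in letter b of mechanical 21%) and Fhl2 (79.7 and 201) in the list of Atf3. With an offset of 1% in place of 5% the differences were 0.60 for Ttr from Crem and 0.72 for Ccl3 from Atf3. Without letter a of spontaneous 21% the differences grew to 0.71 for Klf6 and 0.79 for Fhl2 from Atf3, and without letter b to 0.61 for Ttr from Crem, while Klf6 fell to 0.23. Without letter b of mechanical 21% Ccl3 was at 0.23. The lists of Atf3 and of Crem S66024_g_at had no gene in common, but that of Crem U04835_at held Egr1 and Fhl2, which are also in the list of Atf3.

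**Figure D3:**
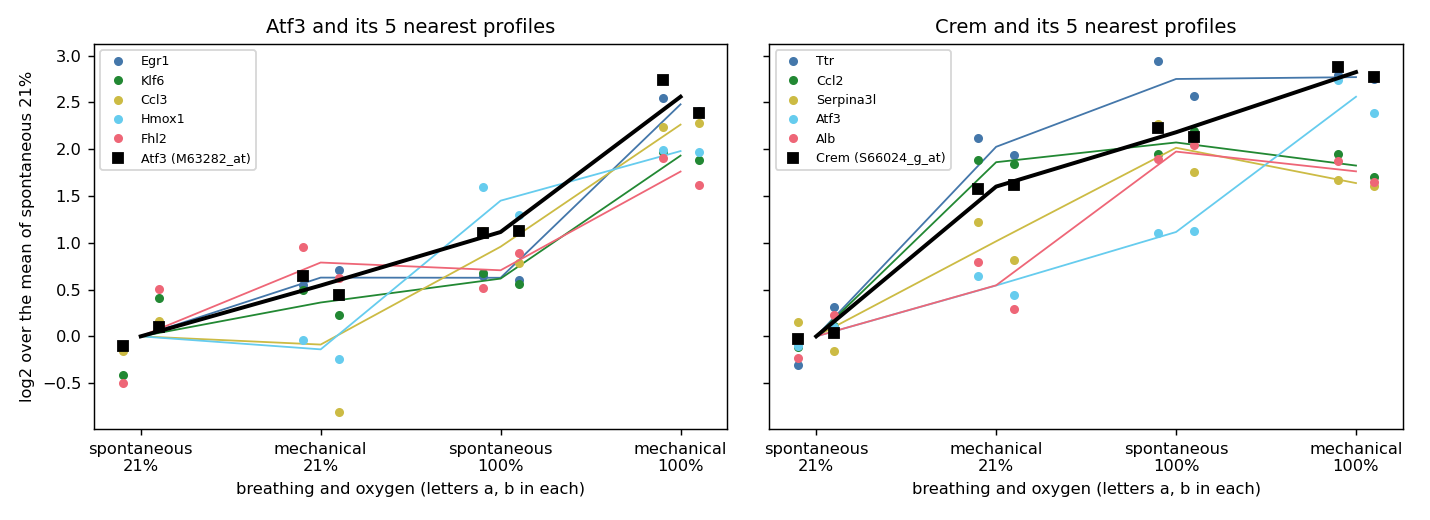
Log2 intensity relative to the mean of spontaneous 21% (y axis) in the 4 groups (x axis) for Atf3 (left, black) and Crem S66024_g_at (right, black) with the 5 genes of nearest profile in colour. Points are samples and lines join group means. Egr1 stays within a root mean square difference of 0.27 of Atf3, and no gene comes closer to Crem than Ttr at 0.39.

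Of the other 19 genes of the ATF/CREB family looked for, 4 were on the array and 3 were tested. Averaged over both ways of breathing, 100% against 21% oxygen called 25.0% of all tested probe sets, 12.8% higher and 12.2% lower (limma, adjusted p under 0.05). In the family 1 of 3 genes rose and 0 fell, with a median log2 change of 0.17 against 0.05 over all probe sets. The gene that rose was Jdp2, a repressor that pairs with Jun, at 0.96 ± 0.12 (limma adjusted p = 0.0016). It read 462 and 614 in spontaneous 21%, 461 and 455 in mechanical 21%, 871 and 911 in spontaneous 100%, and 1134 and 1111 in mechanical 100%, so both oxygen groups lay above both 21% groups. The constitutive factors Creb1 (0.07 ± 0.16) and Atf2 (0.17 ± 0.23) did not pass, and Atf2 was dim, between 80.4 and 175 in all samples.

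Among bZIP factors of other families, which include partners of Atf3, 7 of 13 tested genes rose with oxygen and 0 fell, with a median of 0.44. Fos (1.07 ± 0.09, limma adjusted p = 2.2e-04), Jun (0.89 ± 0.11, limma adjusted p = 0.0018) and Junb (0.86 ± 0.12, limma adjusted p = 0.0035) are subunits of AP-1. Ddit3, the stress factor also called CHOP, rose less (0.59 ± 0.10, limma adjusted p = 0.00745), as did Cebpb (0.44 ± 0.09, limma adjusted p = 0.011), a factor of the acute phase. Fos read 1154 and 1065 in spontaneous 21%, 1064 and 1189 in mechanical 21%, 1584 and 1753 in spontaneous 100%, and 3479 and 3334 in mechanical 100%, highest where Atf3 was highest.

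With ventilation averaged over oxygen, 9.10% of all probe sets were called, 4.84% higher and 4.25% lower, with a median change of 0.04. Of the 3 ATF/CREB genes 0 passed in limma, and 0 also had an unadjusted p under 0.05: Creb1 had 0.22 ± 0.16, Jdp2 0.05 ± 0.12 and Atf2 -0.05 ± 0.23. In the other bZIP families 2 of 13 rose and 0 fell (median 0.20), Fos (0.52 ± 0.09, limma adjusted p = 0.014) and Jun (0.57 ± 0.11, limma adjusted p = 0.023). Fos lost its call without letter b of mechanical 21% (adjusted p = 0.061). Jun lost its own without that sample or letter a of mechanical 21%, spontaneous 21% letter a or spontaneous 100% letter b (adjusted p between 0.051 and 0.080), and also after quantile normalization (0.056), without the filter on low values (0.077) or without the variance trend (0.051).

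The interaction called 27.4% of all probe sets, 16.9% higher and 10.5% lower, with a median of 0.15 over all. In the ATF/CREB family 0 of 3 passed in limma, also at an unadjusted p under 0.05. In the other bZIP families 3 of 13 were higher and 1 lower: Jun (1.36 ± 0.22), Cebpb (1.04 ± 0.17) and Fos (0.99 ± 0.18) had the sign of Atf3, and Dbp, a clock output factor, was at -2.08 ± 0.43. Dbp lost its call without the filter on low values (limma adjusted p = 0.065). With the lot line as a block 151 probe sets were called in all, 0 of these 4 passed. Their values there were 1.11 for Cebpb, 0.93 for Fos, 0.75 for Jun and -1.82 for Dbp. In that fit the interaction also called 0 genes in each of the next 4 pathway lists.

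**Figure D4:**
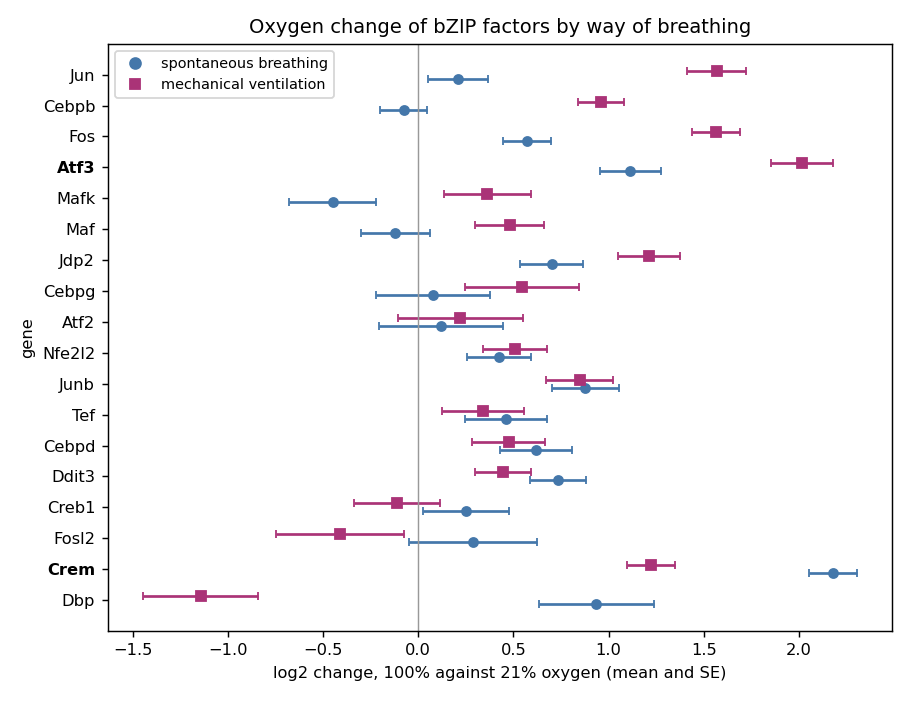
Log2 change of 100% against 21% oxygen (x axis, mean and SE) in spontaneous breathing and under mechanical ventilation for Atf3, Crem and 16 other tested bZIP genes (y axis), ordered by the difference between the 2 changes. Jun, Cebpb, Fos and Atf3 lie at the top with larger changes under ventilation, and Crem and Dbp at the bottom with smaller ones.

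Cyclic AMP and its protein kinase (PKA) lie upstream of Crem and its relatives. Of 23 tested genes of this pathway, 4 rose and 3 fell with oxygen, and the median change was 0.00. Over all tested probe sets 12.8% rose and 12.2% fell. Gnas, the stimulatory G protein subunit that switches on adenylyl cyclase, fell (-1.02 ± 0.15, limma adjusted p = 0.0043), from 17352 and 13795 in spontaneous 21% to 3928 and 4584 in mechanical 100%. Its 17352 lay above the 99th percentile of every array, 7072 to 8357 in mechanical 100% and 9931 to 14581 in the others. How far this narrower range in mechanical 100% lowered Gnas, with oxygen or with ventilation, was not tested. Adcy2, an adenylyl cyclase, rose (0.42 ± 0.09, limma adjusted p = 0.013) and read 1747 and 1641 in mechanical 100% against at most 1115 elsewhere. The count of 7 called genes fell to 2 without mechanical 21% letter b, to 3 without mechanical 21% letter a, and to 4 without letter a of any other group.

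With ventilation 3 of these 23 genes rose and 1 fell, with a median of 0.12. The shares over all tested probe sets were 4.84% and 4.25% for ventilation. For the interaction they were 16.9% higher and 10.5% lower. The PKA catalytic subunits Prkacb (0.53 ± 0.09) and Prkaca (0.48 ± 0.09) and the adenosine receptor Adora2b (0.71 ± 0.14) rose, and Gnas fell (-0.85 ± 0.15; limma adjusted p between 0.017 and 0.024 for the 4). All of these lost their call without letter a or b of mechanical 21% or letter a of mechanical 100% (adjusted p between 0.051 and 0.084). Some lost it also without spontaneous 21% letter a (Gnas, Prkaca, Adora2b), spontaneous 100% letter b (Prkacb, Prkaca, Adora2b) or mechanical 100% letter b (Prkaca), and Gnas (0.099) and Adora2b (0.067) without the filter on low values. The interaction had 7 higher and 0 lower, with a median of 0.42, and 4 higher without spontaneous 21% letter b, spontaneous 100% letter b or mechanical 21% letter b.

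Genes long known for CRE sites and cyclic AMP induction followed oxygen in part: 5 of 17 tested rose, 2 fell, and the median was 0.25. Of all tested probe sets 25.0% were called for oxygen, 9.10% for ventilation and 27.4% for the interaction. The orphan nuclear receptor genes Nr4a1 (1.91 ± 0.17, limma adjusted p = 3.6e-04) and Nr4a3 (1.98 ± 0.24, limma adjusted p = 0.0015) rose, as did Egr1 (1.24 ± 0.09, limma adjusted p = 1.4e-04). Nr4a1 read 466 to 1072 in the other groups and 6505 and 5635 in mechanical 100%. The promoter windows of Nr4a1 and Egr1 held no TGACGTCA. With ventilation 6 of 17 rose and 0 fell (median 0.20), with Egr1 at 1.24 ± 0.09 (limma adjusted p = 2.6e-04) and Nr4a1 at 1.36 ± 0.17 (limma adjusted p = 0.0040). For ventilation the count was 3 if spontaneous 100% letter b was left out and 2 if mechanical 21% letter b was. The interaction called 5 higher and 2 lower, with Nr4a1 at 2.67 ± 0.34.

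For oxygen, genes with the CRE letters in a promoter were called about as often as genes in general. Of 68 tested genes whose RefSeq promoter window held TGACGTCA, 11.8% rose and 11.8% fell with oxygen, against 11.9% and 11.6% of all 2609 tested genes with a window. For ventilation the shares were 8.82% and 4.41% against 4.02% and 2.95%, which is 6 and 3 genes. For the interaction they were 16.2% and 14.7% against 16.5% and 10.7%. These counts are unstable. Of 16 genes called for oxygen 6 were left without mechanical 100% letter a, 8 without either mechanical 21% sample, and 9 and 10 without spontaneous 100% letter a and b. Of 9 called for ventilation 3 were left without either mechanical 21% sample, mechanical 100% letter a or spontaneous 100% letter b. Of 21 called for the interaction 12 were left without mechanical 21% letter a, and 3 with the lot line as a block. Without the filter on low values the counts were 8, 3 and 10.

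The eIF2 alpha and ATF4 arm, through which stress is known to induce Atf3 and Ddit3, had 4 of 17 tested genes higher with oxygen and 0 lower (median 0.18). Calls over all tested probe sets were 25.0% for oxygen, 9.10% for ventilation and 27.4% for the interaction. Atf4 itself is not analysed here. Slc3a2, the heavy chain of amino acid transporters, rose (0.64 ± 0.08, limma adjusted p = 0.0017), and read 5854 and 6113 in mechanical 100% against at most 4399 elsewhere. With ventilation 1 of 17 rose and 0 fell (median 0.20), and the interaction had 3 higher and 1 lower (median 0.26). The gene that rose with ventilation, the growth arrest gene Gadd45a (0.36 ± 0.08, limma adjusted p = 0.038), lost its call when any sample but mechanical 100% letter b was left out (adjusted p between 0.061 and 0.12), and also after quantile normalization, without the filter or the variance trend, with the first array only or with the replicate block (0.058 to 0.086).

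Over all tested probe sets, 25.0% were called for oxygen, 9.10% for ventilation and 27.4% for the interaction. In the stress-activated MAP kinase pathway, which phosphorylates Jun and Atf2 and is known to induce Atf3, 2 of 11 genes rose with oxygen and 0 fell (median 0.22). They were the p38 substrates Mapkapk2 (0.42 ± 0.12) and Mapkapk3 (0.49 ± 0.14), both at a limma adjusted p of 0.037. Mapkapk2 kept its call only without spontaneous 100% letter b or mechanical 100% letter a (adjusted p between 0.053 and 0.11 without each other sample). Mapkapk3 kept it only without spontaneous 100% letter b or mechanical 21% letter a (adjusted p between 0.069 and 0.12 otherwise). Both lost it after quantile normalization and without the filter or the variance trend (0.053 to 0.11), and Mapkapk2 also with the replicate block (0.055). With ventilation 1 rose and 0 fell (median 0.14), the same Gadd45a, and the interaction had 4 higher and 0 lower (median 0.42). That last count was 1 without spontaneous 100% letter b and 2 without mechanical 21% letter a.

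Of 15 tested genes tied to Atf3 in background knowledge, among them cytokine and growth arrest genes, 5 rose and 1 fell with oxygen (median 0.33). The shares called among all tested probe sets were 25.0% for oxygen, 9.10% for ventilation and 27.4% for the interaction. The interleukin gene Il6 had no positive value in spontaneous 21% (-17.7 and -54.4) and read 485 and 461 in spontaneous 100%, 377 and 384 in mechanical 21%, and 432 and 425 in mechanical 100%. Ccl2, with the values given above, rose (1.02 ± 0.11, limma adjusted p = 9.8e-04). With ventilation 4 of 15 rose and 1 fell (median 0.30), among them Ccl2 (0.81 ± 0.11, limma adjusted p = 0.00535). The 5 calls became 2 without either mechanical 21% sample or mechanical 100% letter a, and 3 without spontaneous 21% letter a or either spontaneous 100% sample. Neither Il6 nor Ccl2 read higher with both treatments than with oxygen alone, while Atf3 stood 2.72-fold higher there. The rest of the list was mixed. With oxygen alone and with both, the means were 259 and 591 for Nos2, 1687 and 3659 for Mmp2, and 2904 and 2677 for Il1b. Dim cytokine genes of the full list had higher means with both. They were Il12b (115 and 191), Ccl4 (41.6 and 128), Cxcl2 (30.6 and 79.1) and, with overlapping samples, Ifng (61.8 and 88.4). Tnf was below 0 in every group. In the interaction 3 were higher and 2 lower (median 0.33), and the 2 lower ones were Il6 and Ccl2 (-2.11 ± 0.22, limma adjusted p = 6.6e-04). Il1b (-0.85 ± 0.28) and Hspb1 (-0.83 ± 0.27) had the same sign without passing. Among the higher ones were Mmp2 (1.87 ± 0.20) and Fasn (1.53 ± 0.23). With the lot line as a block and the 9 arrays kept apart, Ccl2 was at -2.45 (limma adjusted p = 0.017).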

How the data were processed

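The values are the authors' deposited array intensities on a linear scale, 1 per probe set and array, with negative values kept. Software and scaling steps are not given in the sources used here. The arrays had trimmed means of 800.5 to 801.1, and 18.36% to 19.94% of values were at or below 0. The 9 arrays stand for 8 samples in 4 groups of 2, and their number limits the precision.

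Values were set to log2(intensity + 40), with values below 0 raised to 0 first, where 40 is 5% of the trimmed mean, so fold changes of dim genes are understated. After removal of 59 control probe sets, those in the lowest 40% by mean level were dropped, which left 5244 probe sets and 3181 genes. Arrays of 1 sample were averaged. Group means were fitted over all 8 samples with limma 3.58.1 in R 4.3.3 (lmFit, eBayes with a variance trend, 4 residual degrees of freedom). P-values were adjusted by Benjamini-Hochberg over all tested probe sets, with a threshold of 0.05. The procedure was tested on simulated data. The brightest probe set stood for a gene.

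Gene names came from the platform annotation (7006 probe sets with 1 symbol, 308 with several, 1426 with none), and 6985 of the symbols matched RefSeq's table. Promoter sequences were RefSeq's, build GRCr8. The 2 genes, the 7 gene lists and the 9 marker lists were chosen with earlier results of these data known. The named genes were, from each list and contrast, up to 4 called genes of smallest p, every tested ATF/CREB gene, and the 5 nearest profiles of Atf3 and of Crem. Alternatives were quantile normalization, an offset of 1% or 10%, a filter of 60% or none, either array of the doubled sample, the sample letter as a replicate block, no variance trend, other probe sets of a gene, each sample left out, and, chosen after seeing the data, the lot line as a block. Python 3.11.15 and matplotlib 3.10.9 served for motifs and figures.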

Additional observations from a re-analysis of the deposited data

Results flagged for a closer look

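In 22 of the named list genes the oxygen change under mechanical ventilation differed from that in spontaneous breathing. This was by the test of the difference itself (limma, Benjamini-Hochberg adjusted p under 0.05, n = 2 per group). The 22 had been picked from each list among the genes called in this same test, by smallest p. Their passing and their number therefore follow from the choice and say nothing about the lists. Of all tested probe sets 27.4% were called in this test. Values are the oxygen change under ventilation minus that in spontaneous breathing, in log2. The bZIP genes with this difference were Jun at 1.36, Cebpb at 1.04, Fos at 0.99 and Dbp at -2.08. In the cyclic AMP pathway they were the adenylyl cyclases Adcy2 (1.42) and Adcy4 (1.84), the anchoring protein Akap12 (2.46) and the phosphodiesterase Pde4b (0.97). Genes known for CRE sites were Nr4a1 (2.67), Egr1 (1.23) and Nr4a2 (1.53), though none of their promoter windows held TGACGTCA. The eIF2 alpha arm held Eif2s1, its alpha subunit (-1.12), Ppp1r15a, which directs its dephosphorylation (1.34), and Slc3a2 (0.84).

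The MAP kinase list held the phosphatase Dusp5 (1.56) and the kinases Mapkapk2 (1.01), Map3k1 (1.16) and Mapk14 (0.70). The genes tied to Atf3 were Il6 (-3.53), Ccl2 (-2.11), the matrix protease Mmp2 (1.87) and the fatty acid synthase Fasn (1.53). Both Il6 values in spontaneous 21% (-17.7 and -54.4) were raised to 0, which leaves no scatter in that group. The size and p-value of its interaction therefore depend on this floor and on the offset. Mapkapk2 lost its call without spontaneous 100% letter b (adjusted p = 0.063) or mechanical 21% letter a (0.058), and Map3k1 without spontaneous 100% letter b (0.061) or mechanical 100% letter a (0.060). Mapk14 kept its call only without spontaneous 21% letter b or mechanical 100% letter a (adjusted p between 0.061 and 0.084 otherwise). Without the filter on low values Dbp (0.065), Mapkapk2 (0.056), Map3k1 (0.065) and Mapk14 (0.058) were not called, and Mapk14 was not called after quantile normalization (0.082) or without the variance trend (0.056).

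The lot line runs almost with this contrast. With it as a block 3 of the 22 were called, Il6 (-3.62, limma adjusted p = 0.011), Ccl2 (-2.45, 0.017) and Mmp2 (1.96, 0.027). The values of the other 19 had the same sign, with adjusted p between 0.067 (Fasn) and 0.44 (Map3k1). Of these 8 were larger in size with the block and 11 smaller. Akap12 moved to 3.23, Fasn to 1.68, Cebpb to 1.11 and Slc3a2 to 1.10, while Jun moved to 0.75, Map3k1 to 0.78 and Ppp1r15a to 1.04. For these 19 the lot line and the groups cannot be told apart.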

How the results depend on the processing

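The oxygen and ventilation changes of Atf3 and Crem kept their direction under every alternative run, and so did their interactions. The filter, the variance trend and the replicate block cannot change these values, so only the other alternatives bear on this. Atf3's interaction was 0.72 after quantile normalization, 0.45 with the lot line as a block, and 0.72 to 1.08 with 1 sample left out. For Crem the oxygen change was 1.77 and 1.63 with offsets of 1% and 10%, 1.58 in S66024_at and 0.92 in U04835_at, and the ventilation change 1.06 with the offset of 10%, 1.28 in S66024_at and 1.05 in U04835_at. Crem's interaction was -1.13 after quantile normalization, -1.04 and -0.87 with these offsets, -1.17 with the lot line, -1.09 in S66024_at and -0.28 in U04835_at. Ventilation alone minus oxygen alone reversed to 0.13 in U04835_at.

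Sample letters did not pair the samples: deviations correlated between groups at -0.128 to 0.0657, so the replicate block only tests a shared letter. With it 1099 probe sets were called for oxygen, 308 for ventilation and 1265 for the interaction, against 1310, 477 and 1439. Atf3's interaction is 0.90 there by construction, because each group holds 1 sample of each letter. Called probe sets for oxygen were 745 without the filter and 639 to 1126 with 1 sample left out, with 639 if mechanical 21% letter b was dropped and 726 if mechanical 100% letter a was. Those for ventilation were 247 without the filter, 258 with the first array, 245 without the variance trend, and 128 to 518 with 1 sample left out. They fell below 300 without either mechanical 21% sample (148 and 128), mechanical 100% letter a or b (204 and 296), spontaneous 21% letter a (222) or spontaneous 100% letter b (147). The interaction had 151 with the lot line.

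Counts of list genes moved as follows. For ventilation the bZIP partners had 1 without the filter or the trend and 0 to 3 with 1 sample left out. The eIF2 alpha arm had 2 after quantile normalization or with the filter of 60%, 3 with the probe set of smallest p, 0 without the filter or the trend, with the first array or with the replicate block, and 0 to 1 with 1 sample left out. The MAP kinase list had 0 after quantile normalization, without the filter or the trend, with the first array or with the replicate block, and 0 to 1 with 1 sample left out. Genes tied to Atf3 had 2 after quantile normalization, 3 without the filter or the trend, with the filter of 60% or with the first array, and 2 to 4 with 1 sample left out. Genes known for CRE sites had 2 to 6, and the cyclic AMP list 0 to 5, with 1 sample left out.

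For oxygen the cyclic AMP list had 4 without the filter, with the filter of 60%, with the second array or with the lot line, and 2 to 7 with 1 sample left out. The MAP kinase list had 0 after quantile normalization or without the filter or the trend, 1 with the replicate block, 4 with the probe set of smallest p, and 0 to 2 with 1 sample left out. For the interaction the cyclic AMP list and the CRE list each had 4 with the filter of 60%, and the MAP kinase list 1 without the filter. With 1 sample left out these were 4 to 9 for cyclic AMP and 1 to 4 for MAP kinase. The lot line left 3 genes tied to Atf3 and 0 in the bZIP, cyclic AMP, CRE, eIF2 alpha and MAP kinase lists.

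Small uncalled changes reversed. Jdp2's ventilation change was -0.014 after quantile normalization, -0.0027 with the first array and -0.041 to 0.15 with 1 sample left out (lowest without spontaneous 21% letter a), and its interaction -0.11 with the lot line. For Atf2, oxygen was -0.039 (without spontaneous 21% letter b) to 0.38, and ventilation -0.26 to 0.16 (without spontaneous 21% letter a), with 0.03 without mechanical 100% letter b. Atf2's interaction was -0.14 after quantile normalization, -0.45 with the lot line, -0.31 (without spontaneous 21% letter a) to 0.52, and -0.07 without mechanical 100% letter a. Creb1's oxygen change was -0.018 after quantile normalization and -0.043 (without spontaneous 100% letter a) to 0.18, and its interaction 0.17 with the lot line. The cause of these moves was not tested.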

Other observations

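The profile of the third Crem probe set, U04835_at, was nearest to those of Snap23 (a root mean square difference of 0.41), Fhl2 (0.45), Egr1 (0.45), Ptn (0.45) and Atf3 (0.45), a comparison added after its values had been seen. Egr1 and Fhl2 were among the nearest to Atf3 as well. Its difference from S66024_g_at, read from the same gene, was 0.73, and that between S66024_g_at and S66024_at was 0.16.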
